A study of Homo sapiens with 12 samples.

Results

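Splicing factor genes of the SRSF, HNRNP, SF3A, SF3B, PRPF and U2AF families were followed through 2 lists of N4-acetylcytidine (ac4C) peaks. The genes were chosen by name, with earlier results of these data known. They are the protein-coding RefSeq genes whose symbol starts with 1 of these prefixes. This gave 62 of 20033 protein-coding genes: 12 SRSF, 26 HNRNP, 9 SF3A and SF3B, 12 PRPF and 3 U2AF genes. The study used RBE cells, a human intrahepatic cholangiocarcinoma line. The control arm is labelled sh-NC. The other arm, sh-NAT10, is a line made with a lentivirus against NAT10, the enzyme that acetylates cytidine in RNA, and kept under puromycin. Per the labels resistant colonies were expanded, and whether these were pooled, and how the control line was made, is not stated. Fragments of RNA were enriched with an ac4C antibody, and the immunoprecipitates were sequenced beside their inputs, as 12 libraries in 4 groups of 3. The values used here are 1 peak list per arm, 34365 control and 28047 knockdown peaks. Neither list separates the replicates, so the spread between replicates is unknown and no test between the arms could be made.

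Splicing removes introns in steps that these families share out. U2AF and the U1-associated PRPF proteins help to mark the ends of the intron, and the SF3A and SF3B subunits hold the U2 particle on the branch point. Several of the other PRPF proteins help to build or activate the U4/U6.U5 particle. SR proteins, encoded by the SRSF genes, mostly bind exons and favour their use, while many hnRNP proteins bind introns or silencer sequences and act against it. Many transcripts of SR and hnRNP genes are themselves regulated by splicing, and most of these genes are active in nearly all cells.

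A peak is a stretch of the genome where the authors' caller found enrichment. It is listed as a single block, so a wide one can include introns. The score beside each peak is the authors' own, of unstated scale, with a median of 12.2 in the control and 12.4 in the knockdown list. Scores describe peaks within each list. Where scores of both lists stand side by side, or a cut of 20 is put on both, whether their scales match is not known. A peak was counted for a gene when it overlapped the gene span by at least 1 bp on either strand. Sequencing depth and RNA level are not in the lists, so less acetylation, less RNA and too few reads cannot be told apart in these counts. Nor can fewer cells of a type and less RNA per cell. NAT10 itself had 5 peaks in both lists, which does not check the knockdown, since peaks are no measure of its RNA. Of the biliary markers, KRT7, KRT19, KRT8, KRT18, SOX9 and CDH1 had peaks in both lists (35 control and 36 knockdown peaks in all), while EPCAM had none in either. Hepatocyte, fibroblast and immune markers had 2, 1 and 6 peaks in each list. All 6 neuron markers examined (SNAP25, SYT1, MAP2, RBFOX3, GABRB2 and STMN2) had more control than knockdown peaks, with 1 to 20 per gene in the control list, 0 to 4 in the knockdown list, and 60 against 6 in all. The marker lists were chosen with earlier results of these data known. Of all protein-coding genes with a peak, 46.1% had more control than knockdown peaks. The part of the neuron markers in the counts over all protein-coding genes was not tested.

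Most splicing factor genes carried peaks in both arms, and in the full lists their peak number was nearly the same. The 62 genes had 232 control and 245 knockdown peaks, so the knockdown number was 106% of the control number, where over all protein-coding genes it was 81.7% (26532 against 32483). A peak in either list was present on 56 of the 62 genes, 90.3%, against 54.5% of all protein-coding genes. Among the 52 genes marked in the control list, 4 were without a knockdown peak (7.69%, against 26.3% of all protein-coding genes so marked). Among the 52 marked in the knockdown list, 4 were without a control peak (7.69%, against 17.4%). More control than knockdown peaks were found on 13 of the 56 genes (23.2%, against 46.1% of all protein-coding genes with a peak), and more knockdown peaks on 28 of the 56 (against 33.3%). The other 15 had equal numbers. The values over all protein-coding genes turn with the length of the lists. With lists of equal length, the knockdown number was 101% of the control number over all protein-coding genes and 121% over the splicing factor genes, and more control peaks were found on 36.8% and more knockdown peaks on 44.8% of all protein-coding genes with a peak. With peaks of a score of 20 or more, these totals were 103% and 113%. Differences were at most 1 peak on 32 of the 56 genes and at most 4 on any. The median was 0.5 more knockdown peaks, beside 0 over all protein-coding genes with a peak. Of the 11 genes that differed by 3 or more, 7 had fewer and 4 had more knockdown peaks. Genes were not counted by size of difference over all protein-coding genes, so whether these differences are unusual cannot be told.

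The number of control peaks a gene starts with bears on how often it has no knockdown peak, so the genes were also set beside others with like numbers. Among genes with 1 control peak, 0 of 12 splicing factor genes and 43.1% of 3352 protein-coding genes lacked a knockdown peak. With 2 or 3 control peaks it was 4 of 14, 28.6%, and 23.6% of 3006. With 4 to 6 it was 0 of 14 and 12.1% of 1805, and with 7 or more 0 of 12 and 8.86% of 1286. The 4 losses therefore all came from genes with 2 or 3 control peaks, where the share was near that of other genes. When only the best-scored control peaks were kept, as many as the knockdown list holds, 3 more genes were left, HNRNPH1, PRPF38A and SRSF9, with a knockdown peak only.

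**Figure D1:**
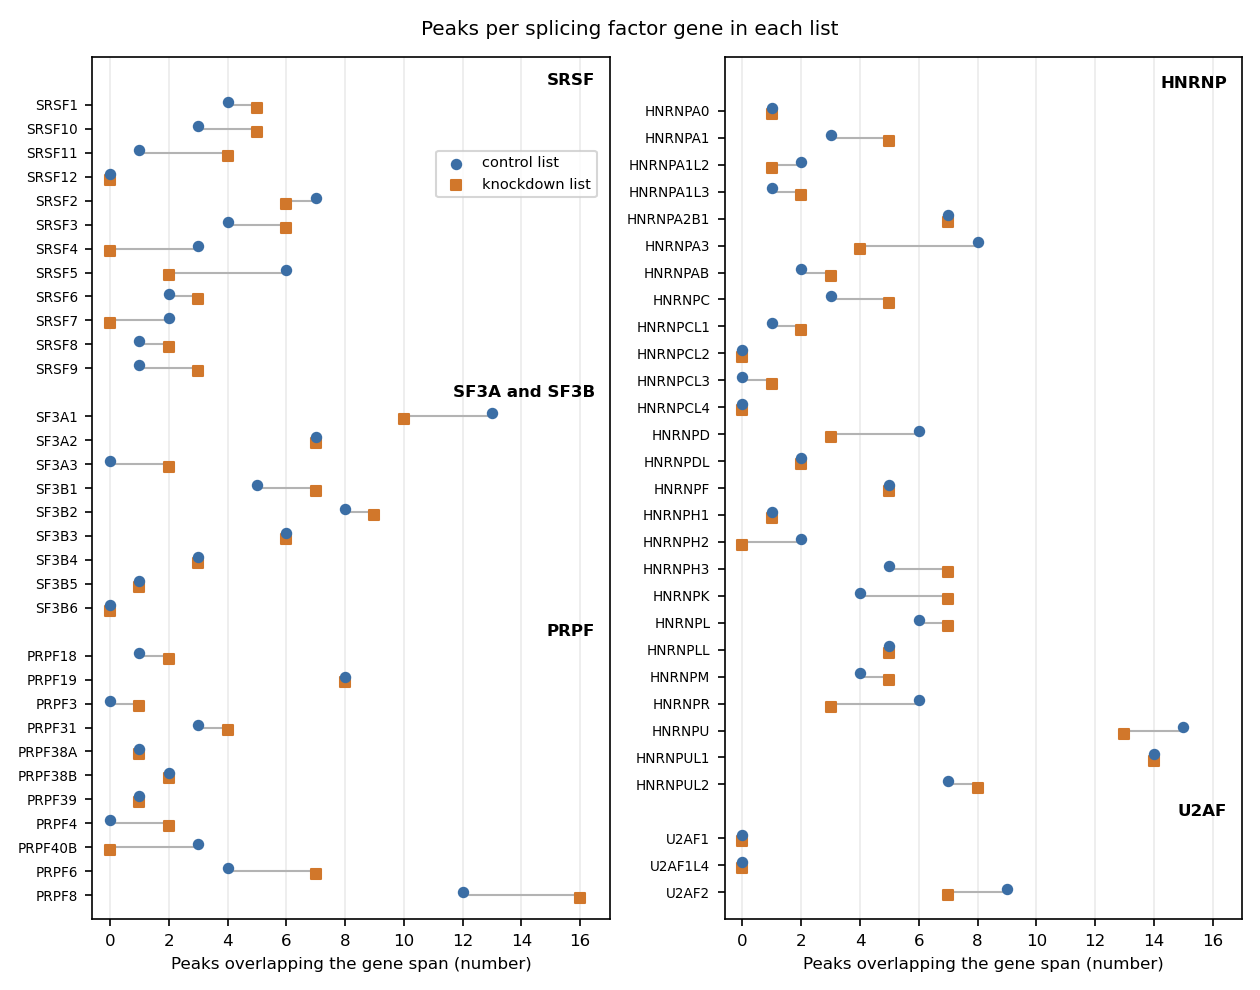
Number of control (blue circles) and knockdown (orange squares) peaks overlapping each splicing factor gene, grouped by family, with a grey line joining the pair, and 1 gene not shown. Most pairs lie within 1 peak of each other, and the widest gaps, of 4 peaks, are those of SRSF5, HNRNPA3 and PRPF8.

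By family, the knockdown number was 106% of the control number for SRSF (34 control and 36 knockdown peaks), 101% for HNRNP (110 and 111), 105% for SF3A and SF3B (43 and 45), 128% for PRPF (36 and 46) and 77.8% for U2AF (9 and 7). The U2AF value is that of U2AF2 alone. With lists of equal length the value was 129% for SRSF (28 and 36 peaks) and 116% for HNRNP (96 and 111). It was then 125% for SF3A and SF3B (36 and 45), 135% for PRPF (34 and 46) and 87.5% for U2AF (8 and 7). Over all protein-coding genes it was 101% at this setting. The order of the families was not tested, as genes of a family are not replicates. Among peaks up to 1000 bp wide the SF3A and SF3B value was 90.3% and the SRSF value 100%, against 79.3% over all protein-coding genes. Among peaks with a score of 20 or more, few in each family, the value was 167% for SRSF (3 and 5 peaks), 90.5% for HNRNP (21 and 19), 130% for SF3A and SF3B (10 and 13), 133% for PRPF (3 and 4) and 150% for U2AF (2 and 3), against 103% over all protein-coding genes. Per 10 kb of gene span, U2AF genes had 2.42 control and 1.88 knockdown peaks, HNRNP genes had 2.41 control and 2.43 knockdown peaks, SF3A and SF3B genes 2.15 and 2.25, SRSF genes 1.85 and 1.96, and PRPF genes 0.939 and 1.20. Over all protein-coding genes the density was 0.251 and 0.205. Splicing factor genes are shorter, with a median span of 15969 bp against 24130 bp.

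SR protein genes were split between gains and losses. Of the 12 SRSF genes, 7 had more knockdown peaks, 4 had more control peaks, and SRSF12 had none in either list. SRSF4 and SRSF7 were the family's 2 genes with control peaks only. SRSF4 (chr1:29147743-29181900, minus strand) had 3 control peaks, of scores 18.5, 13.9 and 11.3, and SRSF7 (chr2:38743599-38751494, minus strand), whose protein adds a zinc knuckle to the RNA-binding domain, had 2, of scores 17.5 and 12.8. None of these 5 reached a score of 20.

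SRSF5 (chr14:69767142-69772005, plus strand) had 6 control and 2 knockdown peaks. The 2 that recurred lie at bases 1658 and 2033 of the gene, and the second has the same coordinates in both lists, a width of 100 bp and scores of 27.8 in the control and 16.8 in the knockdown list. The 4 control peaks without a counterpart, at bases 1483, 3308, 3848 and 4358, had scores of 11.4 to 12.8, so that the downstream part of the gene had no knockdown peak. SRSF2, which in this annotation spans 3297 bp, had 7 control and 6 knockdown peaks, the most in the family in the control list and as many as SRSF3 in the knockdown list, and all of its peaks overlapped a peak of the other list. In each list 5 of its peaks also overlap another gene. Its peaks lie on both strands, and which of these is its own was not known here. In each list they include a block of 4591 bp that overlaps 4 annotated genes, with a score of 0 (control) or 0.428 (knockdown).

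SRSF1, the founding SR protein, had 4 control and 5 knockdown peaks, but none of them overlapped. Its control peaks were 25 to 50 bp wide and lay together between bases 3342 and 3616 of the gene. Its knockdown peaks lay elsewhere, 3 of them within the first 1316 bases, among them one of 454 bp at base 320 with a score of 25.1. SRSF9 showed the same lack of overlap, with 1 control peak at base 221 and 3 knockdown peaks from base 4080 onwards, of scores 10.4 to 19.7. The control peak of SRSF9 had a score of 10.2.

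Among the SRSF genes with more knockdown peaks, SRSF11 had 1 control and 4 knockdown peaks, SRSF3 had 4 and 6, and SRSF10 had 3 and 5. SRSF10, which can repress splicing when it loses its phosphates, had control scores of 10.6 to 11.7 only. In the knockdown list its peak at base 8882 had a score of 41.9 and a peak at base 8682 without a counterpart, 75 bp wide, had a score of 61.1, the highest of any SRSF peak in that list. All 4 control peaks of SRSF3 recurred, and its peak at base 6772 had the same coordinates in both lists. SRSF6 had 2 and 3 peaks and SRSF8 had 1 and 2, all of them of scores below 20.

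**Figure D2:**
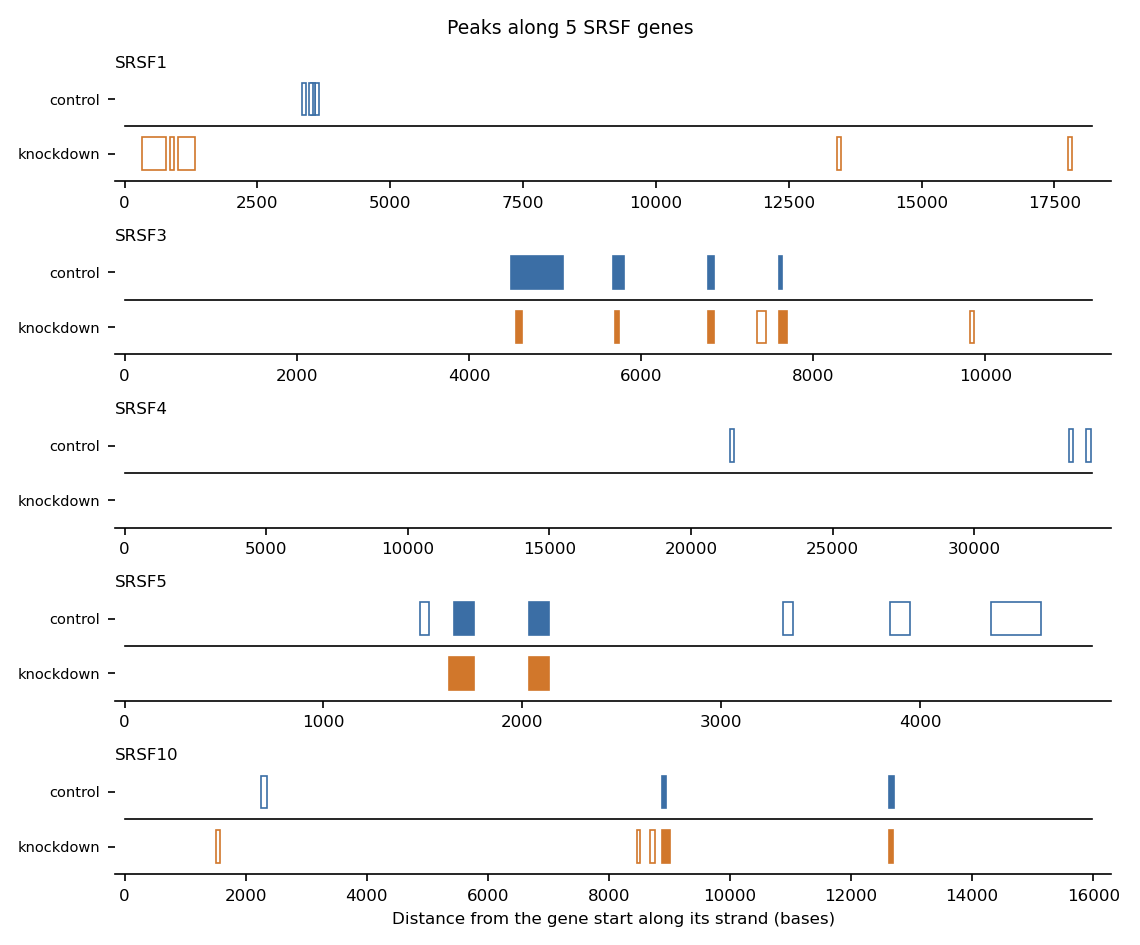
Peaks along 5 SRSF genes, with the distance from the gene start along its strand in bases on the horizontal axis, the control list above the line and the knockdown list below. Filled boxes overlap a peak of the other list and open boxes do not, and peaks too narrow to see are drawn at a minimum width. SRSF3 kept its 4 control peaks, SRSF5 kept 2 of 6, SRSF1 kept 0 of 4, and SRSF4 had no knockdown peak.

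In the full lists HNRNP genes had nearly equal totals that came from gains on 11 genes, losses on 6 and equal numbers on 7. HNRNPU, a large scaffold protein of the nuclear matrix, had 15 control peaks, the most of the 62 genes, and 13 knockdown peaks. Of its control peaks 12 overlapped a knockdown peak, and the highest scores were 41.3 in the control list, at base 2006, and 27.0 in the knockdown list, at base 9483. HNRNPUL1 had 14 peaks in both lists. HNRNPA2B1, a splicing repressor that also sorts RNA, had 7 peaks in both lists and all of them were shared, 3 of them with the same coordinates. Its highest scores were 72.4 and 74.4, on the same 285 bp peak at base 3006. A control peak of 100 bp at base 7074 corresponds in the knockdown list to a single block of 2167 bp.

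HNRNPA3, a relative of HNRNPA1 and HNRNPA2B1, had 8 control peaks and 4 knockdown peaks, and 2 of the 8 overlapped a knockdown peak. On the strand of the gene the numbers were 5 and 3. HNRNPD, which binds AU-rich elements and promotes decay, had 6 and 3, but 4 of the 6 control peaks recurred, and 2 of them were covered by a single knockdown block of 2004 bp. HNRNPR also had 6 and 3, with 2 control peaks shared. HNRNPH2, a binder of guanine tracts, had 2 control peaks of 150 and 25 bp, with scores of 12.2 and 11.6, and none in the knockdown list. Both overlap a readthrough gene that spans HNRNPH2 as well, so this loss drops out when peaks in several genes are left aside.

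HNRNPK, which binds cytidine-rich sequence, had 4 control peaks, all of them shared, and 7 knockdown peaks. Its highest score, 96.6 in the control and 152 in the knockdown list, belongs to a block of 3180 bp that is listed on the strand opposite to the gene and has the same coordinates in both lists. On the gene strand its highest scores were 18.5 and 24.8, on a shared 846 bp peak. HNRNPA1 had 3 and 5 peaks, HNRNPC, which binds uridine tracts, 3 and 5, and HNRNPH3 5 and 7. On the strand of HNRNPH3 the numbers were 3 and 6. For HNRNPLL, with 5 peaks in both lists, the highest control peak (score 48.5, 594 bp, at base 33024) had no counterpart.

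Counts on HNRNPA1, HNRNPC and their near-identical copies are uncertain, as their reads can match more than 1 copy. HNRNPCL3 had 1 knockdown peak of score 15.2 and no control peak, HNRNPCL1 had 1 and 2, and HNRNPCL2 and HNRNPCL4 had none. Among 150 pseudogenes that carry the prefixes, 61 had a peak in either list (45 control, 41 knockdown), including 24 of 75 derived from HNRNPA1. The share over all annotated pseudogenes was not computed, so whether these counts are unusual cannot be told. How reads that match several copies were placed is not stated.

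The SF3A and SF3B genes held several of the highest scores. SF3B2 (chr11:66052364-66069308, plus strand), a subunit that touches the intron near the branch point, had 8 control and 9 knockdown peaks. Its peak of 100 bp at base 643 had the same coordinates in both lists and scores of 115 and 147, the highest on the gene strand for any of the 62 genes. Of its control peaks 7 recurred. SF3B1 (chr2:197389784-197435093, minus strand), the subunit that clamps the branch point, had 5 and 7 peaks, of which 3 control peaks were shared. Its highest control peak, 660 bp at base 42120 with a score of 64.4, had no knockdown counterpart, and its highest knockdown peak, 494 bp at base 36497 with a score of 79.8, overlapped 2 control peaks of scores 11.6 and 11.1.

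SF3A1 had the most peaks of these 9 genes, 13 control and 10 knockdown, and 11 of the 13 were shared. A pair of neighbouring control blocks of 1610 and 534 bp correspond there to a single knockdown block of 2169 bp. SF3A2 had 7 and 7, with 5 pairs at the same coordinates. SF3A3 (chr1:37956975-37990022, minus strand) had 2 knockdown peaks and none in the control list: 100 bp at base 10954 with a score of 52.5, and 2331 bp with a score of 11.7. SF3B3 had 6 peaks in both lists, but only 1 of them was shared. SF3B4 had 3 and 3 and SF3B5 1 and 1, all shared, and SF3B6, a small subunit at the branch point, had none.

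PRPF genes had more knockdown peaks on 7 of 12 genes and more control peaks on 1. PRPF8 (chr17:1650629-1684867, minus strand), the large protein at the catalytic centre, had 12 control and 16 knockdown peaks, with 9 of the 12 shared. The knockdown peaks without a counterpart had scores of 10.1 to 14.4. PRPF6, which bridges the U5 and U4/U6 parts, had 4 and 7 peaks, of which only a block of 5244 bp was shared, at the same coordinates. PRPF19, a ubiquitin ligase that activates the spliceosome, had 8 and 8, with 7 shared.

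The U4/U6 proteins PRPF3 and PRPF4 had knockdown peaks only. PRPF4 had 2, of 2779 and 236 bp with scores of 24.9 and 31.1, and PRPF3 had 1 of 25 bp with a score of 12.3. PRPF31, another U4/U6 protein, had 3 and 4, of which 1 and 3 lie on the gene strand. PRPF40B, a U1-associated protein, had 3 control peaks of scores 11.6 to 13.1 and none in the knockdown list. One of the 3 lies on the opposite strand, and 2 overlap another gene.

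U2AF2 (chr19:55655035-55674716, plus strand), the subunit that reads the polypyrimidine tract, had 9 control and 7 knockdown peaks. All 7 knockdown peaks were shared, and the 2 control peaks without a counterpart, 100 bp at base 12 and 75 bp at base 6050, had scores of 12.7 and 14.6. The top score of the gene, 214 in the control and 118 in the knockdown list, belongs to a block of 12279 bp on the opposite strand. The highest on its own strand were 27.6 and 33.4. U2AF1, the partner subunit, and U2AF1L4 had no peak.

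**Figure D3:**
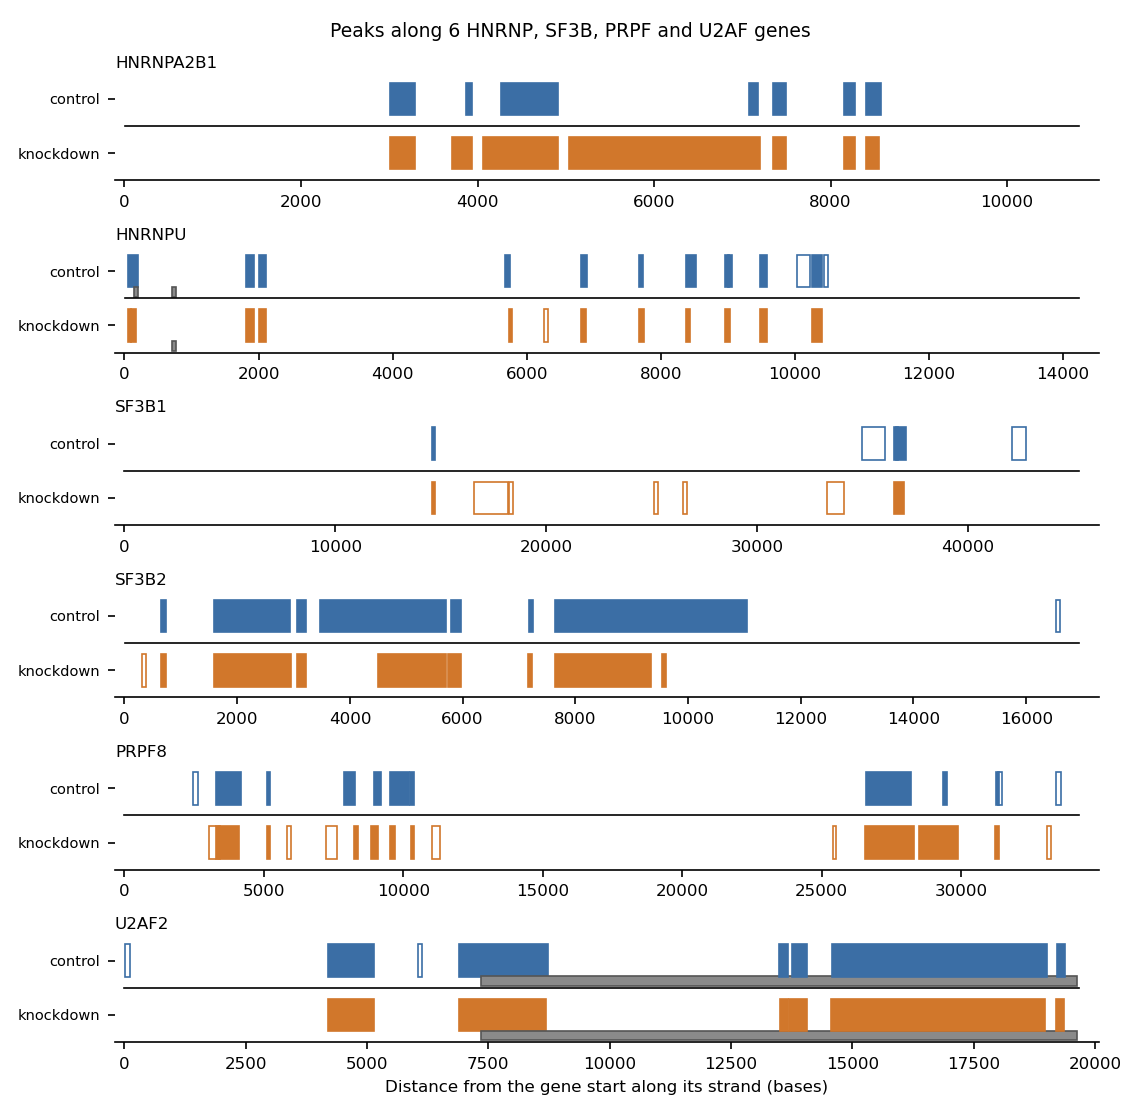
Peaks along 6 genes of the HNRNP, SF3B, PRPF and U2AF families, with the distance from the gene start along its strand in bases on the horizontal axis, the control list above the line and the knockdown list below. Filled boxes overlap a peak of the other list, open boxes do not, and low grey boxes lie on the opposite strand. All 7 HNRNPA2B1 peaks recur, while the highest control peak of SF3B1, at base 42120, is open.

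Sequence could be set beside a few peaks only, those that reach the start windows of RefSeq (build GRCh38.p14, 250 bases before to 50 after a start). A window was found for 54 of the 62 genes. The other 8 were not matched, and their strand was not used. Stretches of 4 peaks follow, the first of them a whole peak and the others the part inside the window, up to 30 bases, with cytidines, the base that NAT10 acetylates, in capitals.
HNRNPF, knockdown peak, chr10:43397230-43397254, minus strand: CaCgaggCCtCCgCttCCCggaCtC
U2AF2, control peak, chr19:55655046-55655075, plus strand: CtggagCgggCggCaaggCgaggCgaaagC
SF3A2, peak of both lists, chr19:2236849-2236873, plus strand: CgaagtCgtggaggtggCgaaaCga
SRSF6, knockdown peak, chr20:43457919-43457945, plus strand: CCCtgtggtgtgaggCgCgtgttCggg
The HNRNPF peak, of 25 bp with a score of 10.7, begins at base 24 from 1 of the starts of the gene and holds 12 cytidines in 25 bases, 48.0%, against 42.3% in its window of 300. The U2AF2 stretch, from the control peak that was not in the knockdown list, holds 7 in 30 (23.3%, window 25.7%). The SF3A2 stretch, from a 967 bp block with the same coordinates in both lists (scores 12.2 and 22.1), holds 4 in 25 (16.0%, window 34.7%). The SRSF6 stretch, from a block of 1899 bp listed with a score of 0.354, holds 6 in 27 (22.2%, window 30.3%). Peaks of HNRNPU in both lists reach its window by 5 bases only, of which 3 are cytidines (60.0%, window 31.7%). With so few stretches nothing is compared between the lists.

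At the level of single peaks, 154 of the 232 control peaks on splicing factor genes met a knockdown peak of the same strand, 66.4% (95% Wilson interval 60.1 to 72.1, counting error only), where 45.3% of the control peaks on all protein-coding genes did. In the other direction 151 of 245 did, 61.6% (55.4 to 67.5, against 54.9%). The same coordinates in both lists were found for 51 peaks, 41 of them up to 1000 bp wide. When both peaks of a pair had to be covered by at least 50%, the shares were 44.4% and 42.0%. Over all protein-coding genes the shares at this setting were not computed. By family, control peaks were shared in 55.9% of cases for SRSF (39.5 to 71.1), 67.3% for HNRNP (58.1 to 75.3), 74.4% for SF3A and SF3B (59.8 to 85.1), 61.1% for PRPF (44.9 to 75.2) and 77.8% for U2AF2 (45.3 to 93.7). These intervals overlap, so that no order of the families can be read from them. In the knockdown list all 7 peaks of U2AF2 were shared (64.6 to 100) and 23 of 46 on PRPF genes (36.1 to 63.9), the only pair of families whose intervals do not overlap, and peaks of a single gene are not independent.

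**Figure D4:**
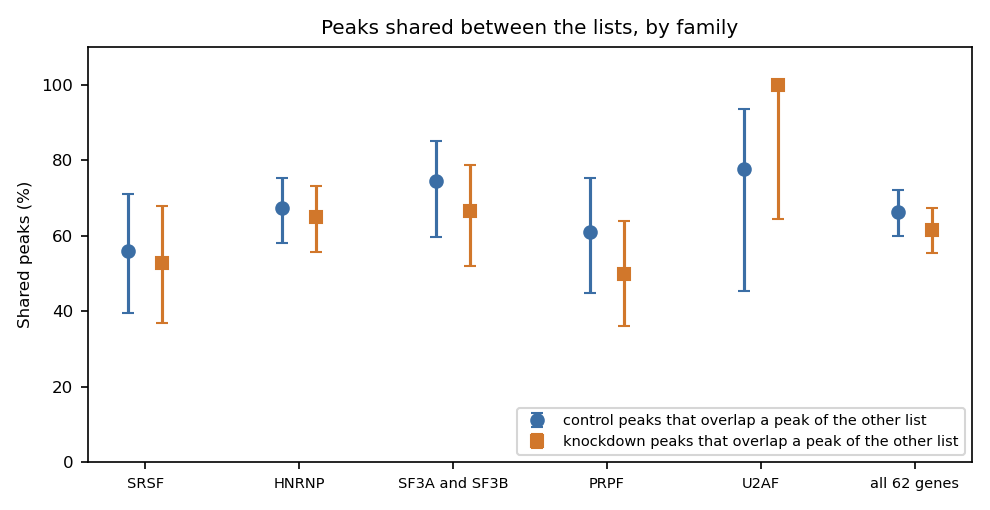
Percent of peaks that overlap a peak of the other list on the same strand, by family, for control peaks (blue circles) and knockdown peaks (orange squares), with 95% Wilson intervals that cover counting error only. For control peaks the intervals of the 5 families overlap, and the last pair is for all 62 genes, at 66.4% and 61.6%.

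Sharing went with score. Control peaks without a counterpart had a median score of 11.6 and a median width of 75 bp, against 13.7 and 150 bp for those with one. Of the 39 control peaks with a score of 20 or more, 35 overlapped a knockdown peak of any score (89.7%), where on all protein-coding genes 63.5% did. The 4 exceptions were on HNRNPLL, SF3A2, SF3B1 and SF3B3. In the knockdown list 44 peaks had such a score and 35 of them were shared (79.5%, against 70.3%), and the 9 others were on HNRNPH3, HNRNPLL, PRPF19, PRPF4 (2 peaks), SF3A3, SF3B1, SRSF1 and SRSF10. Of the 48 genes with peaks in both lists, 17 had all of their control peaks shared, and 5 had none shared: SRSF1, SRSF9, HNRNPH1, HNRNPA1L3 and PRPF39. Of these 5, only SRSF1 had more than 1 control peak. The same counts were not made over all protein-coding genes, so whether 17 and 5 are unusual cannot be told.

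Peaks on splicing factor genes lay less near the gene end than peaks on protein-coding genes at large. This was read from peaks up to 1000 bp on the gene strand, for the 54 genes with a known strand. In the control list the last 10% of the span held 22 of 166 such peaks, 13.3% (8.92 to 19.3), against 31.8% (31.1 to 32.5) of 17467 on all protein-coding genes. In the knockdown list it was 21 of 168, 12.5% (8.32 to 18.4), against 23.8% (23.1 to 24.5) of 13820. The share over all protein-coding genes was thus lower in the knockdown list, while that of the splicing factor genes differed between the lists by 1 peak. HNRNP genes gave 81 of the 166 control peaks, with 9.88% in the last 10% (5.09 to 18.3). For SF3A and SF3B it was 11.5% (4.00 to 29.0), for SRSF 14.8% (5.92 to 32.5) and for PRPF 23.1% (11.0 to 42.1). In both lists the SRSF, PRPF and U2AF intervals include the value over all protein-coding genes, and those of the other families lie below it. Peaks of a single gene are not independent. The first 10% of the span held 13 control and 18 knockdown peaks (7.83% and 10.7%). The median position along the span was 59.7% (control) and 55.7% (knockdown), against 76.0% and 69.9% over all protein-coding genes. Exons and untranslated regions were not analysed here, and the position is that along the whole gene span, introns included.

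**Figure D5:**
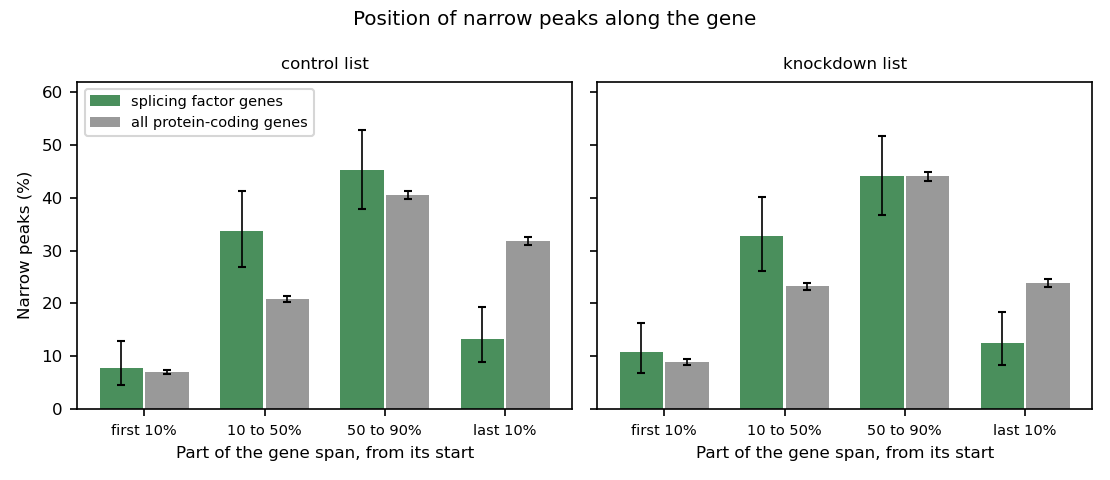
Percent of narrow peaks (up to 1000 bp, on the gene strand) in 4 parts of the gene span, from its start to its end, for the splicing factor genes (green) and all protein-coding genes (grey) in each list, with 95% Wilson intervals. In the last 10% the green bars stand at 13.3% and 12.5%, below the grey bars at 31.8% and 23.8%.

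Other genes of the pathway were read from lists of 56 core and 50 regulator genes. The core list holds small nuclear ribonucleoproteins and other spliceosomal proteins, early-acting ones such as SF1 included. Of its 39 genes with a peak, 22 had more knockdown peaks, 8 more control peaks and 9 equal numbers. The list had 80 control and 105 knockdown peaks in all (131%). Of all protein-coding genes with a peak, 33.3% had more knockdown and 46.1% more control peaks, and their total was 81.7%. No gene of the core list had more than 1 control peak above its knockdown number. The 8 with more control peaks were SNRPD1, SNRNP40 and CWC22 with 1 and 0, DHX16, XAB2 and SLU7 with 2 and 1, RBM22 with 4 and 3, and SF1, which binds the branch point first, with 8 and 7. Knockdown peaks only were found on 9 of the 36 genes marked in that list (against 17.4% of all protein-coding genes so marked), namely CDC5L with 3, SART3 with 2, and SNRPB2, SNRPG, SNRNP35, BUD31, PPIH, SNW1 and ISY1 with 1 each. EFTUD2, the GTPase of the U5 particle, had 7 and 10, DHX8, a helicase that releases the spliced message, 6 and 9, and PLRG1 1 and 4.

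In the regulator list 46 genes had a peak. Of these, 15 had more knockdown peaks, 27 more control peaks and 4 equal numbers. The list had 296 control and 253 knockdown peaks in all (85.5%). The total is near that over all protein-coding genes (81.7%). More control peaks were found on 46.1% and more knockdown peaks on 33.3% of all protein-coding genes with a peak. Control peaks only were found on 3 of the 45 regulator genes marked in the control list, against 26.3% of all protein-coding genes so marked. Knockdown peaks only were found on 1 of the 43 marked in the knockdown list, against 17.4%. The largest differences were on QKI (14 and 4) and NOVA1 (9 and 0), which are prominent in glia and neurons, and on SRRM2, a large protein of nuclear speckles (24 and 18). The neuron markers given above had 60 and 6 peaks, and their part in these 2 genes was not tested. TIA1 and LUC7L, with 2 control peaks each, were the other 2 with control peaks only, and TRA2B, an SR-like regulator, had knockdown peaks only, 3 in number. KHSRP had 9 and 13 peaks. MATR3, NONO, ACIN1 and RBFOX2 each had 3 more knockdown than control peaks.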

How the data were processed

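The labels name fastp 0.20.1 and Bowtie2 2.4.1, with hg38 as the build, per the submitters' processing notes. No source here states which program called the peaks, at what cut-off, or whether inputs or replicates were combined. A list of peaks for either arm was deposited, with 0-based positions (printed from 1) and, per peak, the authors' score of unstated scale. The list named for the control was matched by its name, and the remaining one was taken as the knockdown list. Read depth is unknown.

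Peaks were counted on gene spans of RefSeq (GRCh38.p14), which gives no exons, and strand came from its start windows. Python 3.11.15, NumPy 2.4.6, pandas 2.3.3, SciPy 1.17.1 and matplotlib 3.10.9 were used. Counting was tested on simulated data: planted peaks were recovered in 100% of 200 genes, and 100% of 232 shifted peaks were found again.

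Members and lists were chosen with earlier results of these data known. Named are genes in 1 list only, the 5 largest differences each way with ties, the 5 highest scores per list, the most peaks per family and genes without a peak, and, of the other pathway genes, those in 1 list only and the 3 largest differences. Further genes were named after their values were seen. Alternatives changed the overlap, strand, width, score, list length, merging and genes per peak. Genes of unknown strand kept all of their peaks in the strand setting. The values of 1 gene are not reported here by name; it is included in the counts.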

Additional observations from a re-analysis of the deposited data

How the results depend on the processing

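Of 87 values recomputed under other settings, 76 stayed within 1.5 times the count or inside the 95% interval of the share or ratio. The other 11 did not. All knockdown to control ratios by family stayed inside, but their intervals are wide at these peak numbers. For U2AF the interval held both 77.8% and the 150% found at a score of 20 or more. That the family ratios stayed inside thus does not show that they are stable. With peaks of a score of 20 or more, the genes had 39 control and 44 knockdown peaks, 11 of 25 genes had a knockdown peak only (47.7% over all protein-coding genes) and 6 of 20 a control peak only (47.2%), 16 of 31 genes had more knockdown (40.8%) and 12 of 31 more control peaks (38.3%), with sharing within that class at 43.6% (control) and 38.6% (knockdown). With lists of equal length, 7 of 52 genes had a knockdown peak only (24.2% over all protein-coding genes), 35 of 56 had more knockdown peaks (44.8%) and 10 of 56 more control peaks (36.8%). Sharing was 44.4% and 42.0% at a reciprocal overlap of 50%, and 54.2% and 54.4% among peaks up to 1000 bp. For these 3 settings of sharing, score included, no share over all protein-coding genes was computed. Whether sharing stays above that of other genes there is thus not known. Genes with a control peak only numbered 3 to 6, but the 6 at a score of 20 or more (HNRNPUL2, PRPF31, PRPF8, SF3B3, SF3B4 and SRSF5) include none of SRSF4, SRSF7, HNRNPH2 and PRPF40B, which have no peak of that score. No paired analysis was possible because each arm has 1 list that does not separate the replicates, so neither a replicate block nor leaving out a replicate was run. Depth limits what can be said of an absent peak.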
